A study of Mus musculus with 8 samples.

Results

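The transcript levels of 45 mitosis and spindle checkpoint genes were followed in mouse hematopoietic stem cells that lacked Scribble, Yap1 and Taz, or all of them. The genes were chosen by symbol, as a list of mitotic cyclins and kinases, checkpoint, kinetochore, spindle, condensin and cytokinesis genes and regulators of mitotic entry and exit. The list was chosen with earlier results of these data known. All 45 were found among the 33641 symbols of the deposited tables, and all 45 were among the 16064 genes that passed the filter on low values and were tested. They fall into 9 roles, in which the results are given.

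RNA of sorted stem cells was sequenced in 8 libraries, 2 in each of 4 groups, from C57BL/6 bone marrow. The Scribble null group carried the genotype Scribble-/-, the Yap1 Taz null group Taz-/-;Yap1-/-, the triple null group Scribble-/-;Taz-/-;Yap1-/-, and the wild-type group was Mx1-Cre with wild-type alleles. The authors' name for the set of all 8 libraries also holds Mx1-Cre, so it is not given for wild type alone. Every group, wild type included, received 6 intraperitoneal injections of polyI:C at 10 mg/kg, given every other day, and cells were taken 1 week after induction. Mx1-Cre is driven by an interferon-responsive promoter that is active in many cell types besides stem cells, and polyI:C is itself an interferon inducer. The labels give neither age nor sex, and do not say whether the libraries of a group came from separate animals, so p-values measure the spread between libraries only.

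Scribble is a scaffold protein of cell polarity, and Yap1 and Taz (gene symbol Wwtr1) are transcriptional coactivators of the Hippo pathway. Cells enter mitosis when Cdk1, bound to its cyclins, becomes active. The spindle then forms, the checkpoint holds the cell until each kinetochore is attached, and ubiquitination of the B-type cyclins lets it leave mitosis and divide. Many of these genes are transcribed mainly in G2 and mitosis through CCAAT boxes and a cell cycle homology region in their promoters, and adult hematopoietic stem cells are mostly quiescent. In bulk libraries fewer cycling cells and less mitotic RNA per cell cannot be told apart.

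The promoters of Ttk and Cdca8, the genes that passed the test, and of Cdk1 and Ccnb2, the central mitotic kinase and the cyclin with the most divergent library, are shown for the motifs they share. They are RefSeq sequence of GRCm38.p6, each from 150 bases before to 25 bases after an annotated start, written 5′ to 3′ on the gene's strand. Capitals mark CCAAT, which reads as ATTGG from the opposite strand, and TTTGAA, which reads as TTCAAA from there, the letters of the cell cycle homology region. Ttk covers chr9:83834539-83834713 (+), Cdca8 chr4:124936893-124937067 (-), Cdk1 chr10:69352888-69353062 (-) and Ccnb2 chr9:70421530-70421704 (-). 
Ttk: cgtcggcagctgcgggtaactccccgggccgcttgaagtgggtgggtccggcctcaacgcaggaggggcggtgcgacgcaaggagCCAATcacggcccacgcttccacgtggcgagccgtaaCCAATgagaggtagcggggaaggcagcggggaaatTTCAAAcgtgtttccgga
Cdca8: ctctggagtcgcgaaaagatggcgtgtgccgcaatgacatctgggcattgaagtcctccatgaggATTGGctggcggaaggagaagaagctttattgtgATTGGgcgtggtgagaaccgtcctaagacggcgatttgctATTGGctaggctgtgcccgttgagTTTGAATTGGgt
Cdk1: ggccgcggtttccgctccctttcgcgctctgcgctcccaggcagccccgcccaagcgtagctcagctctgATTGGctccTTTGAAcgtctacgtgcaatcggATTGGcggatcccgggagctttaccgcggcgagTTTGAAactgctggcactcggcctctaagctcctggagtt
Ccnb2: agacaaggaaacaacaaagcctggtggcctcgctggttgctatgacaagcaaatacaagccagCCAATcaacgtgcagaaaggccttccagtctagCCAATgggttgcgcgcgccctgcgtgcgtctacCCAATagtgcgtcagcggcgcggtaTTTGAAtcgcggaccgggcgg

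The RefSeq promoter table held 37 of the 45 genes, with 40 promoters, and was searched on both strands from 250 bases before to 50 bases after the start. TTTGAA or TTCGAA was present for 30 of the 37 genes (81.1%). By promoter it was present in 33 of the 40 (82.5%), against 19.2% of all 32851 promoters of the table. CCAAT was present for 29 (78.4%), against 37.4% of all promoters, and both motifs for 27 (73.0%), against 7.5%. In Cdca8 the last base of TTTGAA is also the first base of an ATTGG match, so those matches overlap. These matches describe the letters of the windows and were not read as binding sites.

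Levels are given in TPM, the authors' measure per transcript length with the same total in every library, which can be compared between genes. The 10 stem cell markers, among them Procr, Slamf1, Mecom and Hlf, were each at or above 1 TPM in every library, and S100a8, Trbc2, Csf1r and Pax5, which define other blood cells, stayed below 1 TPM. Presence at 1 TPM does not show equal levels, and the stem cell markers also differed between groups, as given below. Other genes of those marker lists were present, with 117.6 to 425.1 TPM of Prtn3, 176 to 292.3 TPM of Lyz2, 104.9 to 1507 TPM of H2-Aa and 56.2 to 152.4 TPM of Nkg7 over the 8 libraries. The levels of the deleted genes did not follow the labelled deletions. Wwtr1 was highest in Scribble null, with 5.32 and 3.91 TPM, and had 1.92 and 0.775 TPM in triple null. Yap1 had 5.83 and 2.45 TPM in Scribble null and 2.25 and 2.37 TPM in triple null. Scrib had 6.26 and 7.63 TPM in libraries labelled Scribble null and 14.5 and 7.54 TPM in those labelled triple null, against 8.19 and 9.29 TPM in wild type, and Yap1 and Wwtr1 had 2.13 and 6.63 TPM and 1.10 and 1.15 TPM in Yap1 Taz null libraries, against 2.00 and 2.15 TPM and 0.730 and 1.19 TPM in wild type. TPM of a whole gene does not test a deleted exon, so the groups below are those of the labels. The Y-linked gene Eif2s3y had 4.16 and 4.63 TPM in the Yap1 Taz null libraries and from 45.8 to 64.1 TPM in the other 6, so the Yap1 Taz null libraries differ from wild type in more than the labelled genotype. Scribble null 2 correlated less with its replicate (r = 0.953 over 16064 genes) than with its closest library of another group (r = 0.958). The depth of the libraries is unknown.

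Transcripts of the mitotic genes were lower in Scribble null than in wild-type stem cells across most roles, with Ttk, the checkpoint kinase Mps1, and Cdca8, the passenger complex subunit borealin, passing the test. The level summed over the 45 genes was 1900.0 and 1743 TPM in Scribble null, 2366 and 2334 TPM in Yap1 Taz null, 1755 and 2086 TPM in triple null, and 2313 and 2399 TPM in wild-type libraries. Both Scribble null and both triple null libraries were below both wild-type libraries, and the Yap1 Taz null libraries lay between the wild-type values. Without Ccnb2, whose level in Scribble null 1 stood far from all others, the sums were 1649 and 1704 TPM in Scribble null, 2328 and 2296 TPM in Yap1 Taz null, 1719 and 2026 TPM in triple null and 2255 and 2333 TPM in wild type. By library, 34 and 36 of the 45 genes were below both wild-type values in Scribble null, 17 and 20 in Yap1 Taz null and 37 and 29 in triple null.

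**Figure D1:**
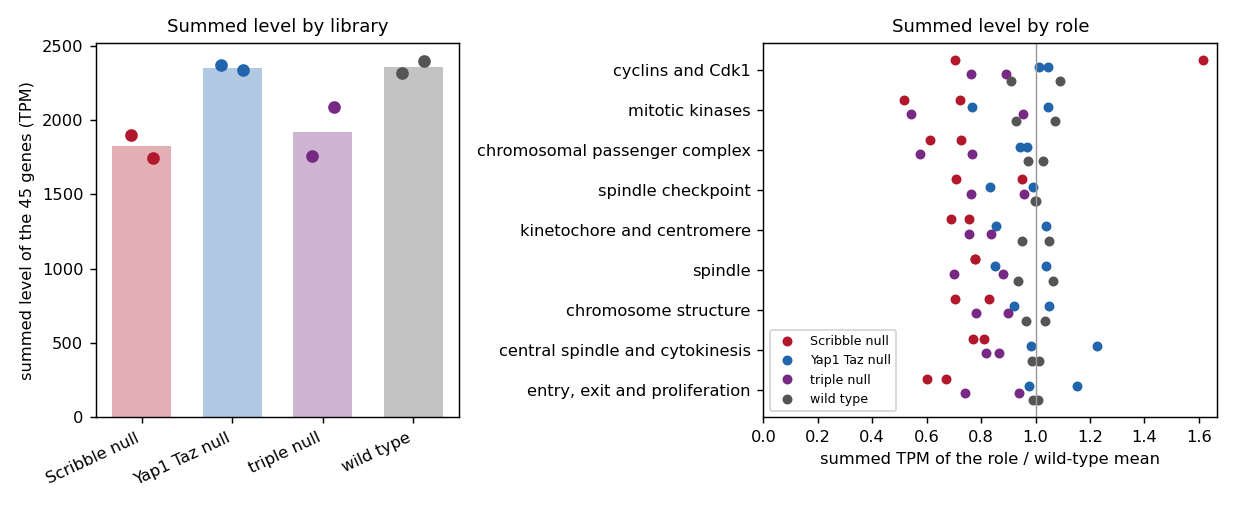
Left, summed TPM of the 45 genes in each library (points) and the group mean (bars). Right, the summed TPM of each role divided by the wild-type mean, where the Scribble null point at the far right of the cyclins and Cdk1 comes from Ccnb2 in 1 library.

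The map of all genes shows the same values gene by gene. The Scribble null and triple null columns are mostly blue, and the Yap1 Taz null columns hold both colours. The 2 wild-type libraries also differ from each other for some genes, most of all for Foxm1 and Ncapg.

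**Figure D2:**
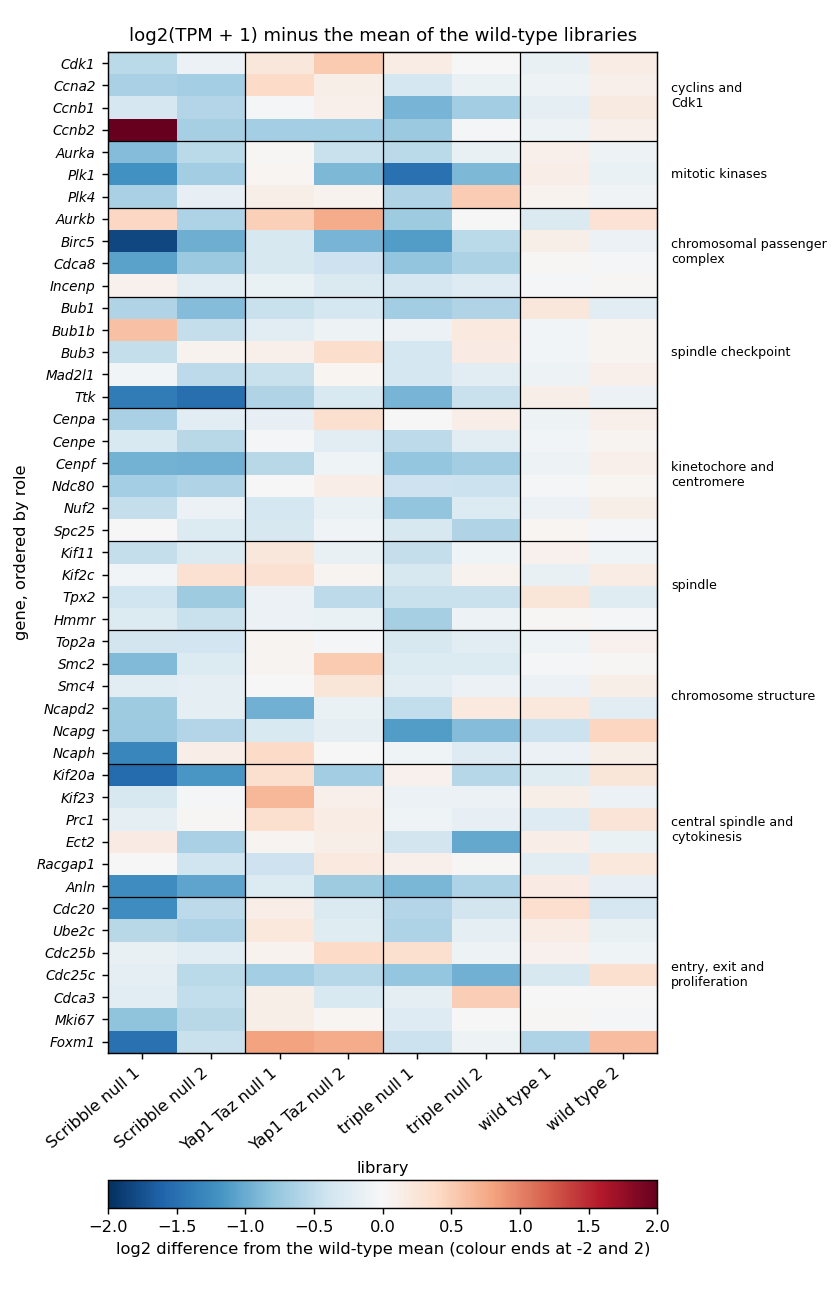
Difference of log2(TPM + 1) from the wild-type mean for each of the 45 genes (rows, ordered by role) in each library (columns), blue for lower and red for higher. Most Scribble null cells are blue, and Ccnb2 in Scribble null 1 is the darkest red cell.

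In the test of Scribble null against wild type, 42 of the 45 log2 changes were below 0, where 37.4% of all genes tested were. The median change was -0.43 on the log2(TPM + 1) scale, against 0.15 over all genes, and 38 of the 45 were below the lower quartile of all genes. Of the 45, 2 passed as lower at a limma adjusted p under 0.05 and 0 as higher, where 0.71% of all genes passed as lower and 0.591% as higher. At an unadjusted p under 0.05, 18 were lower and 0 higher, against 6.16% and 12.0% of all genes. Over the alternatives that kept 2 libraries per group, 13 to 26 were lower and 0 higher at that limma p. This range does not cover fits with 1 library left out. The shares of all genes under these alternatives are not given. The median over all genes moved too, to -0.003 under median-ratio scaling and 0.199 in the authors' table of the whole series. With 1 library left out the median change was -0.52 to -0.37. The libraries did not overlap for 27 genes that were lower (60.0%, against 15.7% of all genes) and for 0 that were higher (against 33.2%). Values of 2 libraries against 2 cannot reach an exact permutation p below 0.333, so the calls rest on the spread shared across genes in limma.

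Among the cyclins and Cdk1, which form the kinase that starts mitosis, none passed the test, and 3 of 4 were below 0 in Scribble null against wild type. Cdk1 had 41.2 and 55.5 TPM in Scribble null, 70.8 and 87.2 TPM in Yap1 Taz null, 67.6 and 60.6 TPM in triple null and 54.6 and 67.3 TPM in wild-type libraries. The highest values were those of Yap1 Taz null, above both wild-type libraries, and the Scribble null range overlapped wild type. Ccna2, the cyclin of S phase and G2, had 37.5 and 36.8 TPM in Scribble null, 77.5 and 64.4 TPM in Yap1 Taz null, 46.3 and 54.1 TPM in triple null and 55.4 and 64.0 TPM in wild type. It was below wild type in Scribble null, by -0.67 ± 0.17 (log2 change ± SE, limma adjusted p = 0.107), and in triple null by -0.25 ± 0.17 (adjusted p = 0.636).

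Ccnb1, the main partner of Cdk1, had 32.6 and 27.3 TPM in Scribble null, 40.7 and 44.7 TPM in Yap1 Taz null, 21.3 and 25.4 TPM in triple null and 36.8 and 47.0 TPM in wild-type libraries. Here the triple null libraries were the lowest, with a log2 change of -0.81 ± 0.20 against wild type (limma adjusted p = 0.185), and the Scribble null libraries were also below wild type. Ccnb1 has 4 near-identical pseudogenes in the annotation, and how the authors' counting shared reads among copies is not given, so its level is uncertain. Ccnb2, the other mitotic B-type cyclin, had 251 and 38.8 TPM in Scribble null, 38.0 and 38.3 TPM in Yap1 Taz null, 36.4 and 60.2 TPM in triple null and 57.8 and 66.2 TPM in wild type. Scribble null 1 stood apart from all other libraries, and the authors' table of the whole series showed the same, with 215 against 33.7 in Scribble null 2 in its own unit. Its log2 change in Scribble null was 0.67 with an SE of 0.70 (adjusted p = 0.651), and without Scribble null 2 it was called higher at 2.00 (adjusted p = 0.0335).

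The mitotic kinases were the role with the lowest median change in Scribble null, -0.70 over 3 genes, and none passed the test. Plk4, which drives centriole duplication and was the most abundant, had 12.5 and 17.9 TPM in Scribble null, 21.8 and 21.2 TPM in Yap1 Taz null, 12.9 and 28.9 TPM in triple null and 21.1 and 19.1 TPM in wild type. The triple null libraries lay far apart, with 1 below and 1 above both wild-type values. Plk1, a kinase of centrosome maturation, chromosome alignment and mitotic exit, had 7.59 and 11.3 TPM in Scribble null, 19.6 and 9.72 TPM in Yap1 Taz null, 6.12 and 9.64 TPM in triple null and 20.9 and 17.1 TPM in wild type. It was lower without overlap in Scribble null and triple null, with log2 changes of -0.95 (limma adjusted p = 0.238) and -1.19 (adjusted p = 0.301), and the triple null value was the lowest of any member in that group. Aurka, the kinase of spindle poles, ranged from 9.10 to 18.7 TPM over all libraries and was lower without overlap in Scribble null and in triple null.

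In the chromosomal passenger complex, which corrects faulty attachments and then moves to the central spindle, Cdca8 fell in Scribble null. Cdca8 (ENSMUSG00000028873, chromosome 4, 124918465 to 124939311 on the minus strand of mm10) had 40.5 and 50.9 TPM in Scribble null, 68.5 and 64.5 TPM in Yap1 Taz null, 49.3 and 54.9 TPM in triple null and 87.7 and 84.0 TPM in wild-type libraries. No library of any null group reached the wild-type values, and the Scribble null and triple null libraries overlapped each other. The means were 45.7 ± 7.40 TPM in Scribble null and 85.9 ± 2.63 TPM in wild type (SD, n = 2 each), a log2 change of -0.90 with a 95% interval of -1.28 to -0.53 (limma adjusted p = 0.0443). Its change was -0.36 in Yap1 Taz null (adjusted p = 0.362) and -0.71 in triple null (adjusted p = 0.154), neither of which passed. The call in Scribble null was lost when any library other than Scribble null 2 was left out, with adjusted p from 0.0845 to 0.267, and over all alternatives the adjusted p ranged from 0.0233 to 0.267.

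Birc5, or survivin, had 17.4 and 32.3 TPM in Scribble null, 51.2 and 33.3 TPM in Yap1 Taz null, 28.9 and 43.8 TPM in triple null and 69.9 and 59.0 TPM in wild type. All 6 null libraries were below both wild-type libraries, and the largest difference was in Scribble null, at -1.40 ± 0.34 (limma adjusted p = 0.0992). Aurkb, the kinase of the complex and its most abundant member, had 89.9 and 43.3 TPM in Scribble null, 93.8 and 113 TPM in Yap1 Taz null, 40.5 and 67.3 TPM in triple null and 54.6 and 82.7 TPM in wild type. It did not follow Birc5, as both Yap1 Taz null libraries were above wild type (0.61 ± 0.38, adjusted p = 0.501) and the Scribble null libraries spanned it. Incenp, the scaffold of the complex, ranged from 26.0 to 35.1 TPM over all libraries.

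Of the 5 spindle checkpoint genes, Ttk fell in Scribble null. Ttk (ENSMUSG00000038379, chromosome 9, 83834689 to 83872389 on the plus strand of mm10), which recruits the checkpoint proteins to unattached kinetochores, had 11.9 and 11.1 TPM in Scribble null, 21.6 and 26.7 TPM in Yap1 Taz null, 16.9 and 24.1 TPM in triple null and 36.2 and 30.3 TPM in wild-type libraries. The Scribble null libraries were below every other library, and all 6 null libraries were below wild type. The means were 11.5 ± 0.609 TPM in Scribble null and 33.3 ± 4.17 TPM in wild type (SD, n = 2 each), with a ratio of 0.345 and a log2 change of -1.45 (95% interval -2.005 to -0.903, limma adjusted p = 0.0346). Its change was -0.45 in Yap1 Taz null (adjusted p = 0.439) and -0.69 in triple null (adjusted p = 0.357). The call in Scribble null was lost on leaving out any 1 of the 8 libraries (adjusted p from 0.0595 to 0.251), and in the authors' table of the whole series the change was -0.95 (adjusted p = 0.105). Over all alternatives its adjusted p ranged from 0.0204 to 0.251.

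Bub1, a checkpoint kinase at the kinetochore, had 19.7 and 16.3 TPM in Scribble null, 22.2 and 23.7 TPM in Yap1 Taz null, 18.3 and 19.7 TPM in triple null and 35.7 and 25.9 TPM in wild type. No null library reached the wild-type range, with a log2 change of -0.73 in Scribble null (limma adjusted p = 0.148) and -0.65 in triple null (adjusted p = 0.341). Bub1b, or BubR1, part of the complex that inhibits Cdc20, was the most abundant checkpoint gene, with 114 and 54.7 TPM in Scribble null, 65.2 and 70.8 TPM in Yap1 Taz null, 70.3 and 87.5 TPM in triple null and 73.7 and 78.9 TPM in wild type. The 2 Scribble null libraries lay far apart, on either side of wild type. Bub3, its binding partner, ranged from 38.5 to 69.2 TPM, and Mad2l1, the Mad2 protein that binds Cdc20, from 36.8 to 57.2 TPM, with Scribble null and wild-type libraries overlapping for both genes.

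All 6 kinetochore and centromere genes were below 0 in Scribble null against wild type, 4 of them without overlap (37.4% and 15.7% of all genes), and none passed the test. Cenpa, the histone H3 variant of centromeres and the most abundant of them, had 30.9 and 42.3 TPM in Scribble null, 43.9 and 61.4 TPM in Yap1 Taz null, 49.4 and 53.8 TPM in triple null and 45.9 and 52.7 TPM in wild type. The Scribble null libraries were both below wild type, and the other null groups overlapped it. Cenpf, a large protein of the outer kinetochore, had 12.7 and 12.5 TPM in Scribble null, 16.9 and 23.8 TPM in Yap1 Taz null, 14.4 and 15.2 TPM in triple null and 23.5 and 27.1 TPM in wild type. Scribble null and triple null libraries were below wild type without overlap, by -0.95 ± 0.23 (limma adjusted p = 0.0973) and -0.73 ± 0.23 (adjusted p = 0.292).

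Ndc80, which binds the spindle microtubules, had 15.0 and 15.9 TPM in Scribble null, 24.5 and 27.04 TPM in Yap1 Taz null, a mean of 18.1 ± 0.149 TPM in triple null (SD, n = 2) and 24.0 and 25.1 TPM in wild type. Its libraries differed little within groups, and the change in Scribble null was -0.64 ± 0.18 (limma adjusted p = 0.139). Nuf2 and Spc25, its partners in the same complex, ranged from 17.0 to 32.8 TPM and from 13.4 to 21.3 TPM, with log2 changes in Scribble null of -0.29 and -0.14 and in triple null of -0.53 and -0.46. Cenpe, a kinesin that moves chromosomes to the spindle equator, ranged from 14.1 to 22.1 TPM and was lower without overlap in Scribble null and triple null.

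The 4 spindle genes had a median change of -0.37 in Scribble null, and none passed the test. Kif11, the kinesin that separates the spindle poles, had 34.6 and 39.7 TPM in Scribble null, 57.3 and 43.8 TPM in Yap1 Taz null, 34.6 and 45.9 TPM in triple null and 51.7 and 45.7 TPM in wild type. Only the Scribble null libraries were both below wild type, at -0.38 ± 0.21 (limma adjusted p = 0.376). Tpx2, which activates Aurka on the spindle, ranged from 28.2 to 55.5 TPM and was lower without overlap in Scribble null and triple null. Hmmr, a spindle microtubule protein, ranged from 21.6 to 35.6 TPM and was lower without overlap in all 3 null groups. Kif2c, a kinesin that depolymerizes microtubules, ranged from 15.1 to 23.7 TPM and had a change of 0.12 in Scribble null, with a 95% interval of -0.44 to 0.69.

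The genes of chromosome structure included the 2 most abundant of the list, Top2a and Smc4, and none passed the test. Top2a, the topoisomerase that untangles sister chromatids and the member with the highest mean, had 146 and 144 TPM in Scribble null, 196 and 183 TPM in Yap1 Taz null, 151 and 160.5 TPM in triple null and 178 and 200.4 TPM in wild type. The Scribble null and triple null libraries were below wild type without overlap, with changes of -0.38 ± 0.12 (limma adjusted p = 0.167) and -0.28 ± 0.12 (adjusted p = 0.462). Ncapg, a condensin subunit, had 21.0 and 23.2 TPM in Scribble null, 28.5 and 31.0 TPM in Yap1 Taz null, 15.8 and 18.8 TPM in triple null and 25.8 and 48.1 TPM in wild type. The wild-type libraries lay far apart, both Scribble null and both triple null libraries were below them, and the change in triple null was -0.99 ± 0.29 (adjusted p = 0.261).

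The condensin core ATPases Smc2 and Smc4 ranged from 27.7 to 74.99 TPM and from 134 to 187 TPM, and both were lower without overlap in Scribble null and triple null. Smc2 was above both wild-type libraries in Yap1 Taz null, at 54.3 and 74.99 TPM against 51.2 and 52.9 TPM. Ncapd2 and Ncaph, further condensin subunits, ranged from 58.2 to 133 TPM and from 12.7 to 43.3 TPM. For Ncaph the Scribble null libraries lay far apart, at 12.7 and 36.1 TPM, against 30.2 and 35.9 TPM in wild type.

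**Figure D3:**
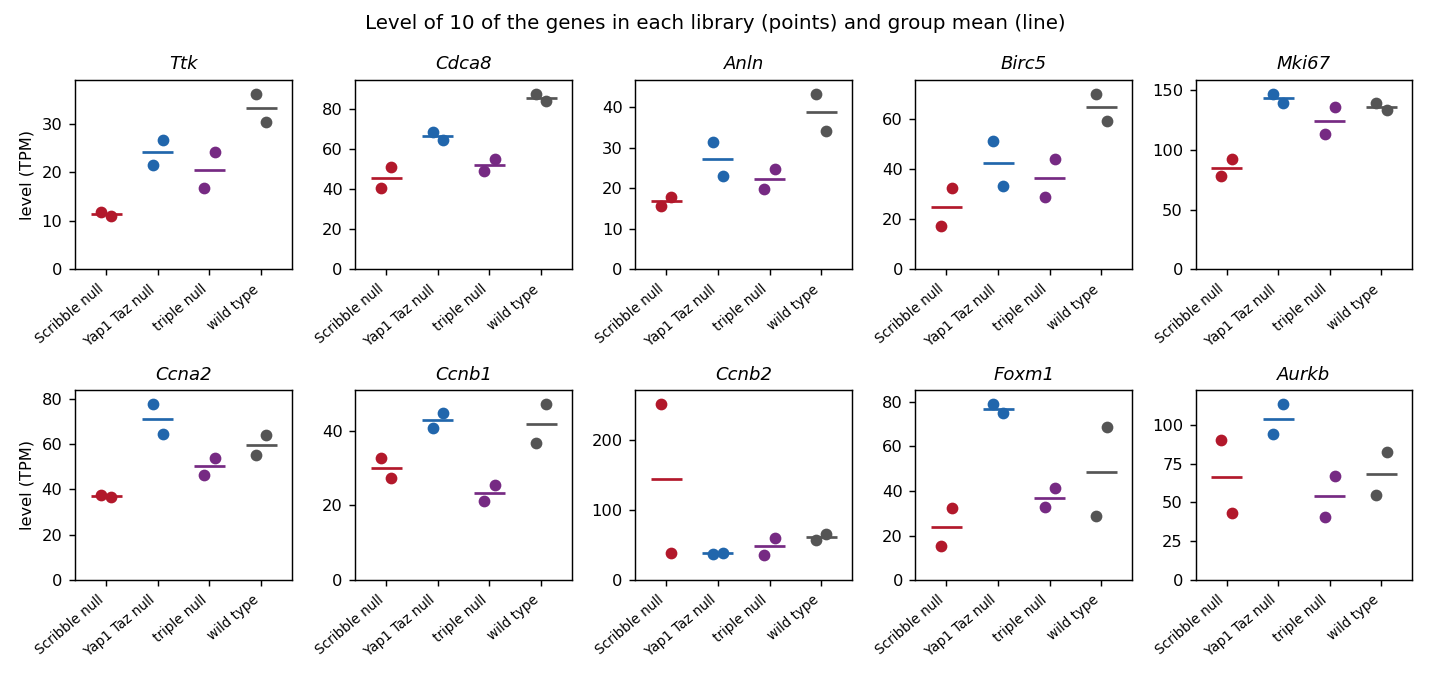
TPM of 10 of the genes in each library (points), with the group mean as a line and an axis from 0 in each panel. Ttk, Cdca8, Anln and Birc5 are below wild type in all 6 null libraries, Foxm1 and Aurkb are highest in Yap1 Taz null, and Ccnb2 reaches 251 TPM in Scribble null 1 only.

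In the role of central spindle and cytokinesis, Anln had the smallest p. Anln, or anillin, which anchors the contractile ring, had 15.6 and 17.9 TPM in Scribble null, 31.4 and 23.0 TPM in Yap1 Taz null, 19.9 and 24.8 TPM in triple null and 43.2 and 34.1 TPM in wild type. All null libraries were below wild type and Scribble null was the lowest group, at -1.15 ± 0.23 (limma adjusted p = 0.0658). It passed where only genes with a mean of 5 TPM or more were tested (adjusted p = 0.0424) and under median-ratio scaling (adjusted p = 0.0473), and its change was -0.62 in the authors' table of the whole series.

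Kif20a, the kinesin that carries the passenger complex to the central spindle, had 3.67 and 5.04 TPM in Scribble null, 15.8 and 7.33 TPM in Yap1 Taz null, 13.3 and 8.08 TPM in triple null and 10.5 and 15.0 TPM in wild type. Both Scribble null libraries were below all others, with a change of -1.35 ± 0.41 (limma adjusted p = 0.151). Of its exon bases 29.3% overlap Cdc23 on the opposite strand, which had 53.1 to 65.1 TPM, and whether the counting used strand is not given, so reads of these genes may not be told apart. The same holds in part for Ccna2, Ncapg, Prc1 and Cdc25c, where 12.5%, 13.4%, 11.1% and 12.7% of exon bases overlap a gene on the opposite strand. Kif23, the kinesin of the centralspindlin complex and the most abundant gene of this role, had 69.9 and 84.8 TPM in Scribble null, 139.8 and 93.6 TPM in Yap1 Taz null, 80.7 and 81.0 TPM in triple null and 94.8 and 80.7 TPM in wild type. Yap1 Taz null 1 was the highest library, and the change of that group was 0.38 ± 0.21 (adjusted p = 0.449). Prc1, which bundles central spindle microtubules, ranged from 48.2 to 72.4 TPM, and Racgap1, the centralspindlin partner of Kif23, from 18.8 to 29.3 TPM. Ect2, which activates RhoA for furrowing, ranged from 9.84 to 23.4 TPM and was lower without overlap in triple null, at -0.69 (adjusted p = 0.496).

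All 7 genes of entry, exit and proliferation were below 0 in Scribble null, 5 without overlap (37.4% and 15.7% of all genes), and none passed the test. Ube2c, the ubiquitin-conjugating enzyme of the anaphase-promoting complex, had 98.8 and 94.9 TPM in Scribble null, 169 and 124 TPM in Yap1 Taz null, 95.4 and 129.6 TPM in triple null and 162 and 132 TPM in wild type. The Scribble null and triple null libraries were below wild type without overlap, and the Scribble null change was -0.59 ± 0.21 (limma adjusted p = 0.201). Mki67, the proliferation antigen Ki-67, had 77.8 and 92.4 TPM in Scribble null, 147 and 139 TPM in Yap1 Taz null, 114 and 136 TPM in triple null and 139 and 133 TPM in wild type. Scribble null stood below the other 6 libraries, at -0.68 ± 0.15 against wild type (adjusted p = 0.0789), and the change passed under median-ratio scaling (adjusted p = 0.0363). A stretch of 216 bases of Mki67 and one of 454 bases of Mad2l1 match a processed pseudogene at 95% identity or more.

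Foxm1, the transcription factor of many genes of G2 and mitosis, had 15.1 and 32.5 TPM in Scribble null, 78.8 and 75.01 TPM in Yap1 Taz null, 32.9 and 41.2 TPM in triple null and 28.7 and 68.6 TPM in wild type. The wild-type libraries were so far apart that Scribble null and triple null overlapped them, and Yap1 Taz null lay above both, at 0.78 ± 0.44 (limma adjusted p = 0.464). Cdc25c, a phosphatase that activates Cdk1, had 10.2 and 7.80 TPM in Scribble null, 6.96 and 7.65 TPM in Yap1 Taz null, 6.52 and 5.55 TPM in triple null and 9.27 and 14.9 TPM in wild type. It was below wild type without overlap in Yap1 Taz null and triple null, by -0.62 ± 0.30 (adjusted p = 0.394) and -0.86 ± 0.30 (adjusted p = 0.359). Cdc25b, a related phosphatase, ranged from 7.42 to 11.7 TPM. Cdc20, the activator of the anaphase-promoting complex that the checkpoint inhibits, ranged from 13.2 to 41.2 TPM and was lower without overlap in Scribble null and triple null. Cdca3, a factor of mitotic entry, ranged from 26.4 to 53.4 TPM and was lower without overlap in Scribble null.

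The Yap1 Taz null libraries also differed from all others in Eif2s3y. Comparisons that use them, the departure from additivity included, therefore hold more than the labelled genotype. In Yap1 Taz null against wild type 25 of the 45 changes were below 0 (36.0% of all genes), and the median was -0.095, against 0.14 over all genes. Its sign was not stable, as the median was 0.035 in the authors' table of the whole series. No member passed the limma test in either direction (0.517% and 0.473% of all genes passed as lower and higher), and 0 had an unadjusted p under 0.05 as lower or as higher, against 4.2% and 10.1% of all genes, with 0 to 2 in each direction when 1 library was left out. The libraries did not overlap for 12 genes that were lower (14.5% of all genes) and 8 that were higher (32.0% of all genes). The 12 included Cdca8, Anln, Ttk, Birc5 and Bub1, and the 8 included Cdk1, Ccna2, Aurkb, Foxm1 and Mki67. Every one of the 45 intervals held 0, and 38 of them lay above -1, so for these a change as low as that of Ttk in Scribble null was outside the interval.

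In triple null against wild type 39 of the 45 changes were below 0 (37.0% of all genes), with a median of -0.29, against 0.12 over all genes. No member passed the limma test (0.355% of all genes passed as lower and 0.224% as higher), and 10 were lower at an unadjusted p under 0.05 with 0 higher, against 3.45% and 7.5% of all genes. The 10 became 4 without triple null 1 and 6 without wild type 1, in a range of 4 to 12 with 1 library left out. The libraries did not overlap for 26 genes that were lower (14.2% of all genes) and 0 that were higher (30.9%). In the full set the 10 were Cdca8, Ccnb1, Ncapg, Anln, Cenpf, Plk1, Bub1, Ttk, Cdc25c and Birc5. Since all 3 null groups were set against the same wild-type libraries, the counts of these comparisons are not independent.

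**Figure D4:**
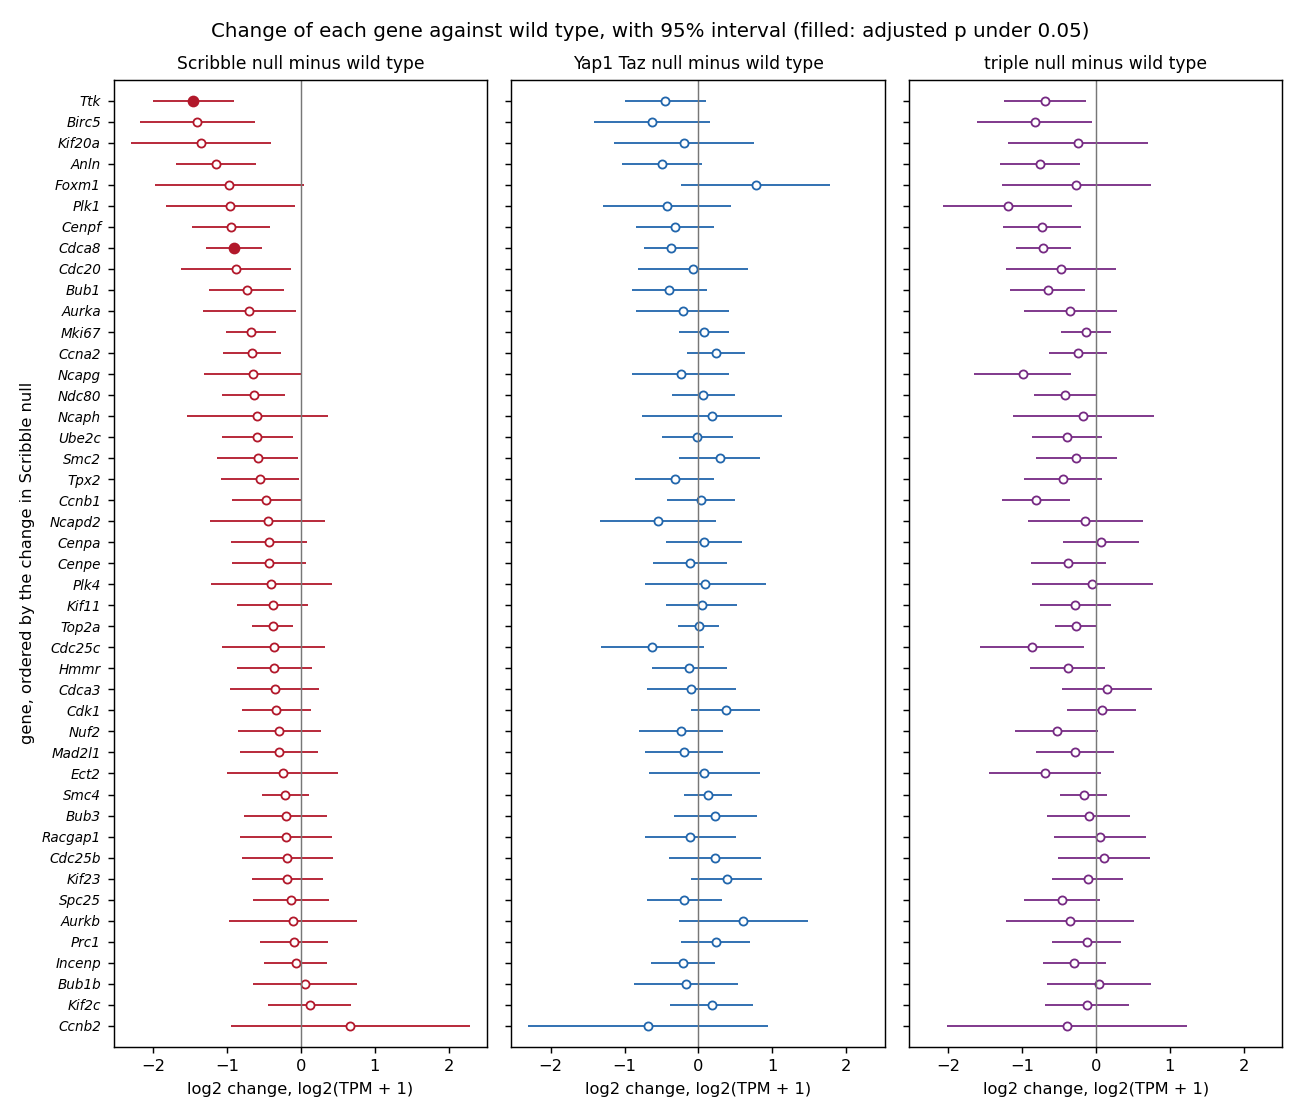
Log2 change of each gene against wild type with its 95% interval, on the log2(TPM + 1) scale, in Scribble null, Yap1 Taz null and triple null, filled where the limma adjusted p was under 0.05. Ttk and Cdca8 in Scribble null are the filled points, and all intervals of Yap1 Taz null hold 0.

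**Figure D5:**
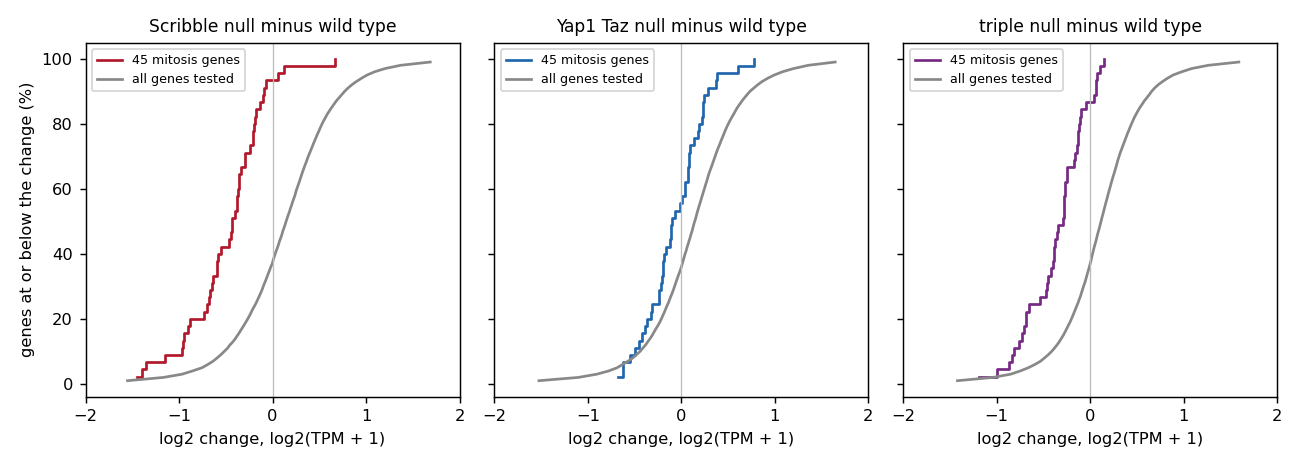
Percent of genes at or below each log2 change, for the 45 genes (coloured) and for all genes tested (grey), in each null group against wild type. The coloured line is left of the grey line through most of its height in Scribble null and triple null, with medians of -0.43 and -0.29 against 0.15 and 0.12.

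The null groups were also tested against each other. In Scribble null against Yap1 Taz null 39 of 45 changes were below 0 (50.4% of all genes) with a median of -0.43, against -0.004 over all genes. No member passed the limma test (0.174% of all genes passed as lower and 0.112% as higher), 17 were lower at an unadjusted p under 0.05 (5.6% of all genes) and 0 higher (4.81%), and the smallest adjusted p was 0.0937 for Ccna2, with a change of -0.91. Foxm1 had the largest difference, -1.75 ± 0.44 (adjusted p = 0.21), and Mki67 one of -0.75 ± 0.15 (adjusted p = 0.113). The libraries did not overlap for 30 genes that were lower (19.8% of all genes) and for Ccnb2 and Cdc25c, which were higher (19.0%). Leaving out Scribble null 1 reduced the 17 to 9, and leaving out Yap1 Taz null 1 reduced them to 10. Without Scribble null 2, where 2 members were higher at that p, Ccnb2 passed as higher, at 2.69 (adjusted p = 0.0255).

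In triple null against Yap1 Taz null 40 of 45 changes were below 0 (52.3% of all genes), with a median of -0.28. No member passed the limma test (0.112% of all genes passed as lower and 0.0685% as higher), and 10 were lower at an unadjusted p under 0.05 (4.58% of all genes) with 0 higher (3.83%). Ccnb1 had the smallest p, at -0.85 ± 0.20 (adjusted p = 0.245), and the libraries did not overlap for 23 genes that were lower (21.3% of all genes). The 10 became 2 without triple null 1, 5 without triple null 2, 4 without Yap1 Taz null 1 and 5 without Yap1 Taz null 2. In triple null against Scribble null the median was 0.11 and 14 of 45 changes were below 0 (51.7% of all genes). Again no member passed the limma test (0.0996% of all genes passed as lower and 0.112% as higher). At an unadjusted p under 0.05 there were 4 higher (4.56% of all genes) and 0 lower (4.59%), and the 4 were Mki67, Ttk, Kif20a and Ccna2, with changes of 0.54, 0.76, 1.10 and 0.42. Their number was 1 without triple null 2 and 9 without Scribble null 2, where 3 were lower. Without Scribble null 2, Ccnb2 passed as lower, at -2.40 (adjusted p = 0.0334).

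Departure from additivity, the triple null change minus both the Scribble null and the Yap1 Taz null change, had a median of 0.15 over the 45 genes, against -0.15 over all genes, and of -0.007 in the authors' table of the whole series. No member passed the limma test for it (0.261% of all genes passed as lower and 0.374% as higher). At an unadjusted p under 0.05, 4 were higher (5.02% of all genes) and 0 lower (9.5%). These were Ttk (1.21 ± 0.34, adjusted p = 0.174), Birc5 (1.19 ± 0.48, adjusted p = 0.317), Anln (0.89 ± 0.33, adjusted p = 0.283) and Cdca8 (0.56 ± 0.23, adjusted p = 0.322). Each of them was lower than wild type in all 3 null groups, by less in triple null than the sum of the other changes. A higher wild-type value raises the departure and lowers each null change. These properties are therefore linked through the same wild-type libraries and are not separate results. The 4 became 1 without wild type 1, 2 without wild type 2, Yap1 Taz null 2 or triple null 2, and 6 without Scribble null 2, where 2 were lower.

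A second list of 140 other mitotic genes, among them further kinetochore, condensin, cohesin, anaphase-promoting complex and augmin genes, was set beside the 45. It was also chosen with earlier results of these data known. In Scribble null 102 of the 140 were below wild type (72.9%, against 37.4% of all genes), with a median of -0.23, against 0.15 over all genes. None passed the limma test, and 26 were lower (18.6%, against 6.16% of all genes) and 7 higher (5.0%, against 12.0%) at an unadjusted p under 0.05. The 26 became 11 without Scribble null 1 and 17 without wild type 1, and the 7 became 3 without wild type 1 and 4 without Scribble null 2. The kinetochore gene Mis12 had 11.2 and 9.84 TPM in Scribble null against 26.3 and 19.1 TPM in wild type (-1.03, adjusted p = 0.104), and Ckap2l, of the spindle, 18.1 and 18.5 TPM against 40.6 and 32.9 TPM (-0.96, adjusted p = 0.0605). Mybl2, a transcription factor of G2 and mitosis genes, had 16.7 and 14.0 TPM in Scribble null against 26.95 and 29.6 TPM in wild type (-0.84, adjusted p = 0.0886), and the kinase gene Melk 4.27 and 3.18 TPM against 8.47 and 12.2 TPM (-1.25, adjusted p = 0.108). Pttg1, or securin, was on the other side, with 83.4 and 77.4 TPM in Scribble null against 48.8 and 41.9 TPM in wild type (0.82, adjusted p = 0.0988).

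Ska3, whose protein helps kinetochores hold microtubules, rose in Yap1 Taz null, to 36.7 and 31.5 TPM, against 14.0 and 15.0 TPM in wild type (1.18 ± 0.20, limma adjusted p = 0.041). It had 27.4 and 34.5 TPM in Scribble null (1.04, adjusted p = 0.0534) and 26.96 and 25.2 TPM in triple null (0.80, adjusted p = 0.182), so all 6 null libraries were above wild type. In Yap1 Taz null 53 of the 140 were below wild type (37.9%, against 36.0% of all genes), with a median of 0.11, against 0.14 over all genes. At an unadjusted p under 0.05, 3 were lower (2.14%) and 9 higher (6.43%). Both shares were below those of all genes, 4.2% and 10.1%, the 9 became 2 without wild type 1, and the 3 became 1 without Yap1 Taz null 2. Beside Ska3, the 9 included Anapc2, a subunit of the anaphase-promoting complex, at 45.8 and 60.0 TPM against 19.2 and 29.5 TPM in wild type (1.11, adjusted p = 0.16). Anapc11, of the same complex, had 31.6 and 26.1 TPM against 19.55 and 20.7 TPM in wild type (0.49, adjusted p = 0.284). The augmin gene Haus2 had 33.1 and 28.2 TPM against 17.7 and 21.8 TPM in wild type (0.61, adjusted p = 0.252), and the kinetochore gene Zwint 108.1 and 86.9 TPM against 74.0 and 71.5 TPM (0.41, adjusted p = 0.303). None of these 4 passed the test.

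Spc24, the partner of Spc25 in the Ndc80 complex, fell in triple null, to 16.1 and 22.5 TPM, against 72.9 and 47.5 TPM in wild type (-1.58 ± 0.25, limma adjusted p = 0.0434). It had 34.3 and 28.8 TPM in Yap1 Taz null (-0.88, adjusted p = 0.184) and 48.2 and 47.5 TPM in Scribble null. In triple null 87 of the 140 were below wild type (62.1%, against 37.0% of all genes), with a median of -0.092, against 0.12 over all genes. At an unadjusted p under 0.05, 3 were lower (2.14%, against 3.45% of all genes) and 5 higher (3.57%, against 7.5%). The 3 became 6 without triple null 2 and 5 without wild type 2, and the 5 became 1 and 6 without these, 2 without wild type 1, and 3 without either Yap1 Taz null library. Those with the smallest p after Spc24 and Ska3 were Mybl2, Cenpu, Ube2s and Ckap2l, with changes of -0.73, 0.70, 0.73 and -0.54, none past the test (adjusted p from 0.211 to 0.361). Cenpu had 34.0 and 43.3 TPM in triple null against 21.0 and 25.9 TPM in wild type, and Ube2s 60.65 and 70.4 TPM against 40.4 and 37.9 TPM. Mybl2 had 16.8 and 16.5 TPM in triple null against 26.95 and 29.6 TPM in wild type, and Ckap2l 23.7 and 26.0 TPM against 40.6 and 32.9 TPM. The calls of Ska3 and Spc24 were lost on leaving out any 1 library.

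Some marker genes of stem cells and of other blood cells moved with the genotype. The 10 stem cell markers summed to 1682 to 1709 TPM in wild type. The sums were 1782 to 2024 TPM in Scribble null, 1757 to 2029 TPM in Yap1 Taz null and 2102 to 2191 TPM in triple null. Kit had 267.5 and 280.9 TPM in wild type and 383.6 to 532.4 TPM over the null libraries. Ly6a went the other way, with 359.3 and 417.3 TPM in wild type and 147.7 to 254.9 TPM over the null libraries. Procr was below wild type in Yap1 Taz null only. The 6 megakaryocyte markers summed to 401.6 to 407.6 TPM in Scribble null, 586.9 to 587.7 TPM in Yap1 Taz null and 449.7 to 478.8 TPM in triple null, against 1137 to 1272 TPM in wild type. Most of this difference was in Pf4, with 94.9 and 98.9 TPM in Scribble null, 222.3 and 211 TPM in Yap1 Taz null and 135 and 222.1 TPM in triple null, against 816 and 958 TPM in wild type, while Itga2b, Gp9 and Vwf of the same list had 125 and 133 TPM, 101 and 94.6 TPM, and 73.1 and 74.8 TPM in Scribble null, against 127 and 134 TPM, 122 and 105 TPM, and 53.5 and 61.7 TPM in wild type. The 7 monocyte, macrophage and dendritic markers summed to 423.6 to 472.5 TPM in Scribble null, 551.6 to 602.0 TPM in Yap1 Taz null and 832.5 to 886.7 TPM in triple null, against 2289 to 2531 TPM in wild type, and 4 of the 7, among them Csf1r and Itgax, were under 1 TPM in every group. Most of this difference was in the antigen presentation genes H2-Aa, with 127 and 105 TPM in Scribble null against 1402 and 1507 TPM in wild type, and Cd74, with 106 and 113 TPM against 674 and 768 TPM. Lyz2 of the same list had 238 and 205 TPM in Scribble null, 213 and 176 TPM in Yap1 Taz null and 292 and 238 TPM in triple null, against 212 and 256 TPM in wild type. The 7 granulocyte markers summed to 268.2 to 428.2 TPM in Scribble null, 163.2 to 175.4 TPM in Yap1 Taz null and 199 to 215.9 TPM in triple null, against 118.1 to 142.1 TPM in wild type, most of it from Prtn3, with S100a8 listed at 0. The 6 B cell markers summed to 3.76 to 5.18 TPM in Scribble null, 5.82 to 10.7 TPM in Yap1 Taz null and 10.9 to 237 TPM in triple null, against 5.03 to 6.79 TPM in wild type, with 234 TPM of Ighm in triple null 1. The 6 T and NK cell markers summed to 99.4 to 115.8 TPM in Scribble null, 60.6 to 74.9 TPM in Yap1 Taz null and 102.2 to 111.3 TPM in triple null, against 142.5 to 154.2 TPM in wild type, most of it from Nkg7, with Trbc2 listed at 0. Klrb1c of that list had 30.9 and 14.95 TPM in Scribble null, against 0.659 and 3.24 TPM in wild type. The 3 markers of other progenitors, Cd48, Flt3 and Cd34, summed to 94.0 to 102.3 TPM in Scribble null, 55.55 to 76.5 TPM in Yap1 Taz null and 86.2 to 89.9 TPM in triple null, against 80.8 to 81.2 TPM in wild type. The part of these markers in the mitotic values was not tested.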

How the data were processed

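RNA of sorted stem cells was amplified with the Ovation RNA-Seq System v2 and made into Nextera XT libraries, per the labels' protocols. The authors deposited 1 table per library with TPM values per gene symbol, per the file headers. TPM scales each library to 1000000, so a larger share of one gene lowers all others, and it keeps no depth. The submitters' processing notes name TopHat and mm10, while the quantifier, annotation and strand use were not given in the sources used here. The authors also deposited a series table that holds a signal in an unnamed unit for 28987 identifiers (27458, or 94.725%, matched a symbol) and served as an alternative only.

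The 16064 genes that reached 1 TPM in 2 or more of the 8 libraries entered limma 3.58.1 (R 4.3.3) on the log2(TPM + 1) scale, with a variance trend and 1 model over the 4 groups (4 residual and 4.002 prior degrees of freedom), and Benjamini-Hochberg adjustment over all genes of a comparison. Genes under an adjusted p of 0.05 were called. Changes on this scale understate those of low genes. The script was tested on simulated data. Sums, means and SDs used TPM, and intervals are 95% intervals of limma.

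The members and lists were chosen with earlier results of these data known. Values in every library are given for called members, for the 10 smallest p in each comparison with wild type and for the most abundant gene of each role (Ndc80 in triple null as a mean). Of 140 other mitotic genes, those called and up to 6 per comparison are given in the libraries compared. Overlaps and copies (at least 95% identity over 200 bases, BLAST 2.17.0) came from the GENCODE annotation of GRCm38. Alternatives were the pseudocount (0.1), the filter (none, or a mean of 5 TPM), scaling, the series table, the variance trend, the replicate block, groups of a comparison only, and each library left out. 1 marker list is not reported here.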

Additional observations from a re-analysis of the deposited data

How the results depend on the processing

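Of 816 alternative values for 48 gene and comparison pairs, 755 kept direction and call, 52 lost a call, 9 gained one and 0 reversed. Only Ttk and Cdca8 in Scribble null, Ska3 in Yap1 Taz null and Spc24 in triple null had a call to lose. All 52 losses were theirs, and most of the 755 were pairs without a call that stayed so. In Scribble null against wild type the count of members called lower, 2 with the settings of the text, was 0 with no filter on low values, in the table of the whole series, without the variance trend, with the replicate block and with the groups of the comparison only, and 5 under median-ratio scaling. The shares of all genes called under the alternatives are not given here. These counts therefore do not show whether the members or all genes moved. The library titles number the replicates of each group as Exp#1 and Exp#2, and whether these were shared experiments is not stated. Deviations of same-numbered libraries had correlations from -0.0531 to 0.0258 over all genes tested. That cannot show whether these members were paired, so the numbers were used only in the replicate block, which left 0 members called. Under median-ratio scaling and quantile normalization the members' median change was -0.59 and -0.52 in Scribble null, -0.27 and -0.21 in Yap1 Taz null, -0.43 and -0.40 in triple null, and 0.36 and 0.28 for the departure from additivity; the table of the whole series gave 0.035 in Yap1 Taz null and -0.007 for the departure. For the other mitotic genes these scalings gave medians of -0.39 and -0.35 in Scribble null, -0.067 and -0.003 in Yap1 Taz null, -0.23 and -0.20 in triple null, and 0.25 and 0.19 for the departure. The table of the whole series gave -0.15, 0.19, -0.043 and -0.059 for these, and -0.22 for triple null against Yap1 Taz null.

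Other mitotic genes called lower in Scribble null numbered 1 with a mean of 5 TPM or more, 2 under median-ratio scaling and 1 under quantile normalization, and 1 was called higher with a mean of 5 TPM or more. The call of Ska3 in Yap1 Taz null became 0 with no filter, under both scalings, without the trend, with the block and with the groups only. That of Spc24 in triple null became 0 with no filter, in the table of the whole series, without the trend, with the block and with the groups only. The cause was not tested.

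With 1 library left out, the lone sample of a group was assumed to vary like the others. In Scribble null 0 to 1 members were called lower and 0 to 1 higher, with member medians of -0.52 to -0.37 and medians of the other genes of -0.25 to -0.18. In Yap1 Taz null the member median was -0.095 to 0.015 and 0 other genes were called higher. In triple null the medians were -0.43 to -0.22 for members and -0.11 to -0.023 for the others, with 0 others called lower. Triple null against Scribble null had 0 to 1 members called lower and medians of 0.029 to 0.22 for members and 0.094 to 0.21 for the others. Triple null against Yap1 Taz null had medians of -0.42 to -0.21 and -0.19 to -0.092, and Scribble null against Yap1 Taz null 0 to 1 members called higher. The departure had medians of 0.055 to 0.28 and -0.023 to 0.075. The median-ratio factors were 1.016 to 1.072 in the null libraries and 0.9 and 0.947 in wild type. With 2 libraries a group and SEs of the members' changes from 0.12 to 0.70, small changes could not be told from none, and TPM keeps no depth to set a counting limit.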
